A study of Homo sapiens with 3 samples.

Results

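The 7 genes described here encode the enzymes that make deoxynucleotides and supply thymidylate for DNA: RRM1, RRM2 and RRM2B, the subunits of ribonucleotide reductase, and TYMS, TK1, DUT and DTYMK, which form, salvage or process thymidine and deoxyuridine nucleotides. They were chosen by gene name, and all 7 were found among the 29960 genes of the deposited table. RNA had been sequenced from 5637, an established human bladder cancer line, in a parental form (genotype label WT) and a gemcitabine-resistant form. The 3 libraries analysed were Parental 1, Resistant 1 and Resistant 2, all with the treatment label Untreated and all grown in RPMI medium with serum. The labels say that resistance was produced by acute gemcitabine treatment, whereas the study's methods describe continuous exposure to rising doses, and libraries came from independent single-cell clones, so each library stands for 1 clone of the 3 that the study names per group. Gene counts summed to 14475531 in Parental 1, 15836788 in Resistant 1 and 17461941 in Resistant 2.

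Ribonucleotide reductase turns ribonucleoside diphosphates into deoxyribonucleoside diphosphates. Its large subunit RRM1 holds the catalytic and regulatory sites, and it works with a small radical-bearing subunit, either RRM2, which is made in S phase, or RRM2B, which serves DNA repair and mitochondrial DNA outside S phase. TYMS methylates deoxyuridylate to thymidylate, TK1 makes thymidylate from thymidine, DTYMK carries thymidylate on towards the triphosphate, and DUT breaks down deoxyuridine triphosphate and so provides the substrate of TYMS. Gemcitabine is a deoxycytidine analogue whose diphosphate form inactivates ribonucleotide reductase, and for this reason the genes have long been studied in cells that resist the drug.

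Epithelial transcripts predominated in all 3 libraries, as the label of the line requires. The 10 urothelial and epithelial markers summed to 10148 CPM (read counts relative to library size, scaled by edgeR's TMM method) in Parental 1, 7449 in Resistant 1 and 7669 in Resistant 2, with the highest CPM in KRT19 at 4311, 3593 and 4790 CPM. The basal keratin KRT5 was the marker called by the test used below, at 272 CPM in Parental 1 against 9.79 and 13.8 in the resistant libraries (log2 fold change -4.52, adjusted p = 0.0021, edgeR). DESeq2 called KRT5 and also KRT17, which was at 196, 17.2 and 53.4 CPM (log2 fold change -2.47 and adjusted p = 0.13 in edgeR, adjusted p = 0.0023 in DESeq2). The 5 immune markers summed to 0.781, 1.53 and 1.21 CPM, and the 3 endothelial markers found to 0.426, 0.612 and 2.02 CPM. The 5 fibroblast markers summed to 173, 155 and 147 CPM, nearly all of it COL1A1 and COL1A2, while COL3A1 was at 0 in Parental 1 and Resistant 1. The part of KRT5, KRT17 and of the collagen genes in the results below was not tested.

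Because RRM2, TK1, TYMS and DTYMK are classical genes of S phase, short letters in their promoters are shown to place them beside RRM1. RefSeq windows on build GRCh38.p14, from 250 bases before to 50 bases after each annotated start, were matched for 6 of the 7 genes. They were searched on both strands for CCAAT, the box read by the factor NF-Y, and for 4 words of the E2F site (TTTCCCGC, TTTCGCGC, TTTGCCGC and TTTGGCGC). CCAAT was present in 34.6% of all 35116 windows and an E2F word in 3.31%. Each line below gives 20 bases from 5′ to 3′ on the strand of the gene, with the matched letters in capitals, where ATTGG and GCGGGAAA are the reverse complements of CCAAT and TTTCCCGC.
RRM1 (chr11:4094650-4094669, plus strand): tccatatCCAATggggccca
RRM2 downstream window, first (chr2:10122609-10122628, plus strand): ggcgcagCCAATgggaaggg
RRM2 downstream window, second (chr2:10122639-10122658, plus strand): ggcacagCCAATgggaaggg
RRM2 downstream window, last (chr2:10122666-10122685, plus strand): accaaagCCAATgggaaggg
TK1 first (chr17:78187117-78187136, minus strand): ggcgctgATTGGccccatgg
TK1 second (chr17:78187086-78187105, minus strand): gctcgtgATTGGccagcacg
DTYMK first (chr2:241686895-241686914, minus strand): gccccggCCAATcccttcga
DTYMK second (chr2:241686827-241686846, minus strand): acgccggCCAATgggagctc
TYMS (chr18:657608-657627, plus strand): acggccGCGGGAAAaggcgc
DUT (chr15:48332149-48332168, plus strand): gggctgGCGGGAAAtttcgg

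RRM2 held 3 CCAAT boxes in its downstream window, a number reached by 3.26% of all windows, and the letters CCAATgggaaggg were common to all 3. Its upstream window held 1 more, tCCAATcgctgctcctcacg at chr2:10122318-10122337, without those letters after it. TK1 held 2 in 1 of its 2 windows and DTYMK held 2 in its single window, where 10.8% of all windows held 2 or more. RRM1 held 1. TYMS held 1 E2F word and no CCAAT, and DUT held 2 E2F words in 1 of its 4 windows. A match of letters is a description of the sequence and not a measurement of binding.

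RRM1 (ENSG00000167325, chromosome 11, 4115937 to 4160106, plus strand, hg19, as are all positions of genes below) was the gene of the set that differed most between libraries. It had 3092 reads in Parental 1, 1871 in Resistant 1 and 9458 in Resistant 2, which correspond to 219.6, 114.5 and 545.3 CPM. The resistant libraries lay on opposite sides of the parental one: Resistant 1 was at 0.521 of the parental level, with a 95% exact interval of 0.492 to 0.552, and Resistant 2 was 2.48-fold above it, with an interval of 2.38 to 2.59. Resistant 2 was thus 4.76-fold above Resistant 1 (interval 4.53 to 5.01). These intervals cover counting error only, and with 1 library per clone the difference between clones has no test. In bulk RNA, a change in the number of cells that express a gene and a change in RNA per cell cannot be told apart.

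Between the resistant libraries, 1 of the 7 genes, RRM1, differed by at least 2-fold, beside 13.0% of the 15643 genes tested. A ratio as far from 1 as that of RRM1 was found in 351 of the genes tested, or 2.24%, and in 28 of 9677 genes, or 0.289%, when only genes with a mean of at least 10 CPM were counted. Lying at least 1.5-fold below the parental library in Resistant 1 and at least 1.5-fold above it in Resistant 2, as RRM1 did, was seen in 1.23% of genes tested. The authors' group means, which take in clones whose own values were not analysed here, were 2959 normalized counts in the parental group and 5989 in the resistant group, a log2 ratio of 1.02.

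**Figure D1:**
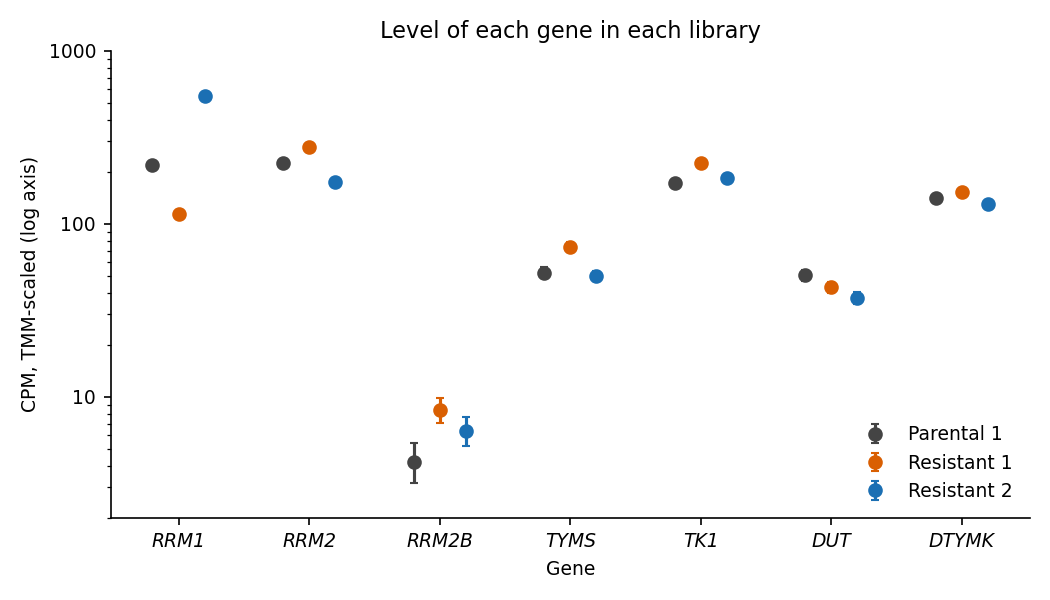
TMM-scaled CPM of the 7 genes on a log axis in Parental 1 (grey), Resistant 1 (orange) and Resistant 2 (blue); points are single libraries and bars are 95% exact Poisson intervals of the count, which are smaller than the point for most genes. RRM1 is at 114.5 CPM in Resistant 1 and 545.3 in Resistant 2, while RRM2, RRM2B, TYMS, TK1 and DTYMK are highest in Resistant 1.

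RRM2 (ENSG00000171848, chromosome 2, 10262455 to 10271545, plus strand) ran the other way. It had 3160, 4555 and 3030 reads in Parental 1, Resistant 1 and Resistant 2, or 224.5, 278.8 and 174.7 CPM. Resistant 1 was 1.24-fold above the parental library and Resistant 2 at 0.778 of it, so that here too the resistant libraries lay on both sides. Resistant 2 was at 0.627 of Resistant 1 (interval 0.598 to 0.656). The authors' group means were 3532 in the parental and 3904 in the resistant group, a log2 ratio of 0.14.

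RRM2B (ENSG00000048392, chromosome 8, 103216730 to 103251346, minus strand), the alternative small subunit, was the lowest of the 7 in CPM and in FPKM. Its reads numbered 59, 137 and 110, or 4.19, 8.38 and 6.34 CPM, and both resistant libraries were above the parental one. The ratio to Parental 1 was 2.00 in Resistant 1 (interval 1.46 to 2.76) and 1.51 in Resistant 2 (interval 1.09 to 2.11). The ratio between the 2 resistant libraries was 0.756 (interval 0.583 to 0.979). The authors' group means gave a log2 ratio of 0.23.

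Levels scaled by the deposited gene length (FPKM) show how the subunits stood to one another. RRM1 was at 67.5, 37.3 and 171 FPKM in Parental 1, Resistant 1 and Resistant 2, and RRM2 at 59.4, 78.3 and 47.2 FPKM. The ratio of RRM1 to RRM2 in FPKM was 1.14 in Parental 1, 0.477 in Resistant 1 and 3.62 in Resistant 2. By FPKM the large subunit was therefore the more abundant transcript in Parental 1 and Resistant 2 and the less abundant in Resistant 1. In Parental 1 that order rests on the deposited lengths, 3166 bases for RRM1 and 3673 for RRM2. There RRM1 had fewer reads than RRM2, 3092 against 3160. RRM2B stayed near 1 FPKM, at 0.827, 1.75 and 1.28, and RRM2 exceeded it 71.9-fold in Parental 1, 44.6-fold in Resistant 1 and 37.0-fold in Resistant 2.

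TYMS (ENSG00000176890, chromosome 18, 657604 to 673578, plus strand), the synthase of new thymidylate, had 736, 1205 and 871 reads in Parental 1, Resistant 1 and Resistant 2, or 52.3, 73.8 and 50.2 CPM. It was 1.41-fold above the parental library in Resistant 1 (interval 1.29 to 1.55), and in Resistant 2 it was at 0.960 of it, with an interval of 0.870 to 1.06 that takes in 1. Its last 1036 bases overlap ENOSF1 on the opposite strand, which had 762, 913 and 1021 reads. The sources used here do not say whether reads were counted by strand, so reads in the overlap may belong to either gene.

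TK1 (ENSG00000167900, chromosome 17, 76170160 to 76183314, minus strand), the salvage kinase, had 2422, 3655 and 3209 reads, or 172.0, 223.7 and 185.0 CPM. It was above the parental library in both resistant ones, by 1.30-fold (interval 1.23 to 1.37) and 1.08-fold (interval 1.02 to 1.13). DTYMK (ENSG00000168393, chromosome 2, 242615157 to 242626406, minus strand) was the steadiest of the set, at 1983, 2482 and 2248 reads, or 140.9, 151.9 and 129.6 CPM. Its highest level was 1.17-fold its lowest. The authors' group means gave log2 ratios of 0.30 for TYMS, 0.41 for TK1 and 0.24 for DTYMK.

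DUT (ENSG00000128951, chromosome 15, 48623208 to 48635570, plus strand) was the member below the parental library in both resistant ones. It had 711, 703 and 645 reads, or 50.5, 43.0 and 37.2 CPM, with ratios to Parental 1 of 0.852 (interval 0.767 to 0.947) and 0.736 (interval 0.661 to 0.820). The authors' group means gave a log2 ratio of 0.09, in the opposite direction. The ratio of TYMS to DUT in FPKM was 1.34 in Parental 1, 2.21 in Resistant 1 and 1.74 in Resistant 2. Processed copies of DUT and RRM2 listed by name had at most 4 reads in any library, and the antisense gene RRM1-AS1 had 0, 0 and 4.

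By FPKM the order of the 7 genes changed from library to library. DTYMK (111 FPKM) and TK1 (99.5) led in Parental 1, TK1 (137) and DTYMK (127) in Resistant 1, and RRM1 (171) and TK1 (109) in Resistant 2. TK1 and DTYMK overlapped across libraries, and so did RRM1 with TK1, DTYMK, RRM2 and TYMS. RRM2 did not fall below 47.2 FPKM and TYMS did not exceed 45.8. DUT, between 17.2 and 22.9 FPKM, stayed below TYMS, whose lowest value was 30.0, and RRM2B stayed below all others.

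Resistant against parental, the 2 resistant libraries were compared with the parental one by edgeR's quasi-likelihood test across 15643 genes. A gene was called at an adjusted p under 0.05, and 9.54% of the genes tested had an unadjusted p under 0.05. With 1 parental library and 1 residual degree of freedom, the parental clone is assumed to vary as the resistant clones do. The test called 91 genes, or 0.582%, of which 21 were higher and 70 lower in the resistant libraries. With edgeR's relative log expression (RLE) factors in place of TMM the same test called 178, of which 62 were higher. The balance of directions also depended on the other settings: 80 of 164 calls were higher among genes averaging 5 CPM or more, 46 of 137 in the legacy quasi-likelihood fit, and 123 of 247 in DESeq2. None of the 7 genes was called by edgeR or by DESeq2, and none had an unadjusted p under 0.05 in either.

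The fitted log2 fold changes, with their 95% intervals, were wide. RRM1 gave 0.59 (SE 0.74, interval -1.10 to 2.27, adjusted p = 0.90, edgeR), in which the opposite directions of the resistant libraries are averaged. RRM2B gave the largest estimate, 0.81 (SE 0.51, interval -0.34 to 1.97, adjusted p = 0.69, edgeR). TK1 (0.25, interval -0.53 to 1.03) and TYMS (0.25, interval -0.61 to 1.10) were slightly above 0. RRM2 (0.01, interval -0.87 to 0.90) and DTYMK (-0.00, interval -0.76 to 0.76) were near 0, and DUT was at -0.33 (interval -1.12 to 0.45). For these 5 genes, adjusted p ranged from 0.86 to 1.00 (edgeR). An interval that reaches from -0.87 to 0.90, as that of RRM2, takes in an increase of 1.86-fold. In counts simulated on the same design, 3 of 49 genes changed 2-fold and 25 of 50 genes changed 4-fold were called.

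**Figure D2:**
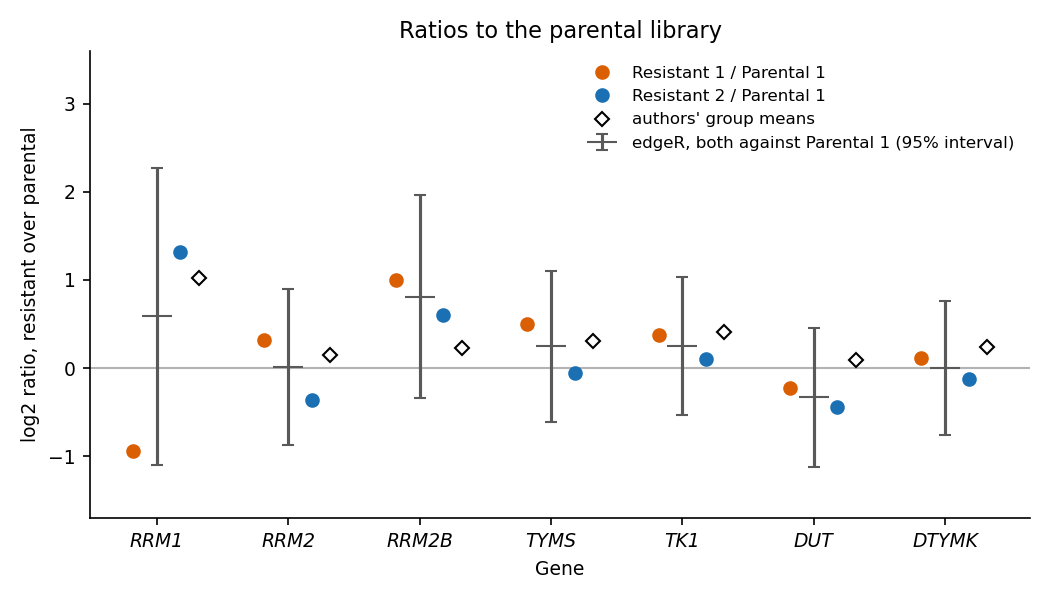
Log2 ratio of resistant to parental for each gene: Resistant 1 over Parental 1 (orange), Resistant 2 over Parental 1 (blue), the ratio of the authors' group means (diamonds) and the edgeR estimate with its 95% interval (grey). All 7 intervals take in 0, and the resistant libraries lie on opposite sides of 0 for RRM1, RRM2, TYMS and DTYMK.

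Aside from RRM1, the genes shared a direction between the resistant clones. RRM2, RRM2B, TYMS, TK1, DUT and DTYMK, 6 of 7, were lower in Resistant 2 than in Resistant 1, beside 50.5% of all genes tested. The log2 ratio of Resistant 2 to Resistant 1 was -0.67 for RRM2, -0.55 for TYMS, -0.40 for RRM2B, -0.27 for TK1, -0.23 for DTYMK and -0.21 for DUT, against 2.25 for RRM1. For 5 of the 7, all but RRM1 and DUT, Resistant 1 was the highest of the 3 libraries, beside 30.5% of genes tested. Each of the 6 counting intervals of this ratio stayed below 1.

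Genes of DNA replication showed a similar lean between the same libraries. Of 35 genes of S-phase replication, 26 were lower in Resistant 2 than in Resistant 1, with a median log2 ratio of -0.20, beside -0.01 over all genes tested. The primase subunit PRIM1 was at 22.0 and 9.97 CPM in Resistant 1 and Resistant 2 and the single-strand binding subunit RPA3 at 50.9 and 25.02 CPM, whereas POLD1, the catalytic subunit of polymerase delta, was at 132.3 and 250.3 CPM. Against the parental library none of the 35 was called by edgeR or DESeq2, 3 had an unadjusted p under 0.05 in edgeR and 2 in DESeq2, and the median log2 fold change was -0.18, beside 0.03 over all genes. By the authors' group means the median log2 ratio of the 35 was -0.0030, beside 0.02 over all genes tested. The lowest estimate was that of the helicase subunit MCM6 (135.8, 77.4 and 64.9 CPM, log2 fold change -0.93, adjusted p = 0.41, edgeR), and the highest that of the clamp loader RFC1 (65.6, 120.1 and 117.2 CPM, 0.85, adjusted p = 0.47, edgeR). The flap nuclease FEN1 was at 176.4, 108.1 and 95.99 CPM.

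The regulators of S-phase transcription gave no call either. Of 22 E2F and RB genes, 15 were lower in Resistant 2 than in Resistant 1, and the median log2 fold change against the parental library was -0.11. None was called by edgeR or DESeq2, with 1 unadjusted p under 0.05 in edgeR and 0 in DESeq2. E2F3 was at 712.5, 728.3 and 419.6 CPM, while E2F1 was at 83.5, 75.7 and 123.7 CPM. MYBL2 had the lowest estimate (297.4, 196.2 and 146.1 CPM, log2 fold change -0.80, adjusted p = 0.52, edgeR) and E2F5 the highest (0.57, adjusted p = 0.80, edgeR). The 4 genes of RRM2 and TK1 protein turnover had a median log2 fold change of -0.23, with no call and no unadjusted p under 0.05 by edgeR or DESeq2. Among them CCNF, which targets RRM2 protein for destruction, was at 97.1, 77.7 and 64.1 CPM, and FZR1, an activator of the ligase that removes TK1 and RRM2 protein, was at 124.7, 99.3 and 161.4 CPM.

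**Figure D3:**
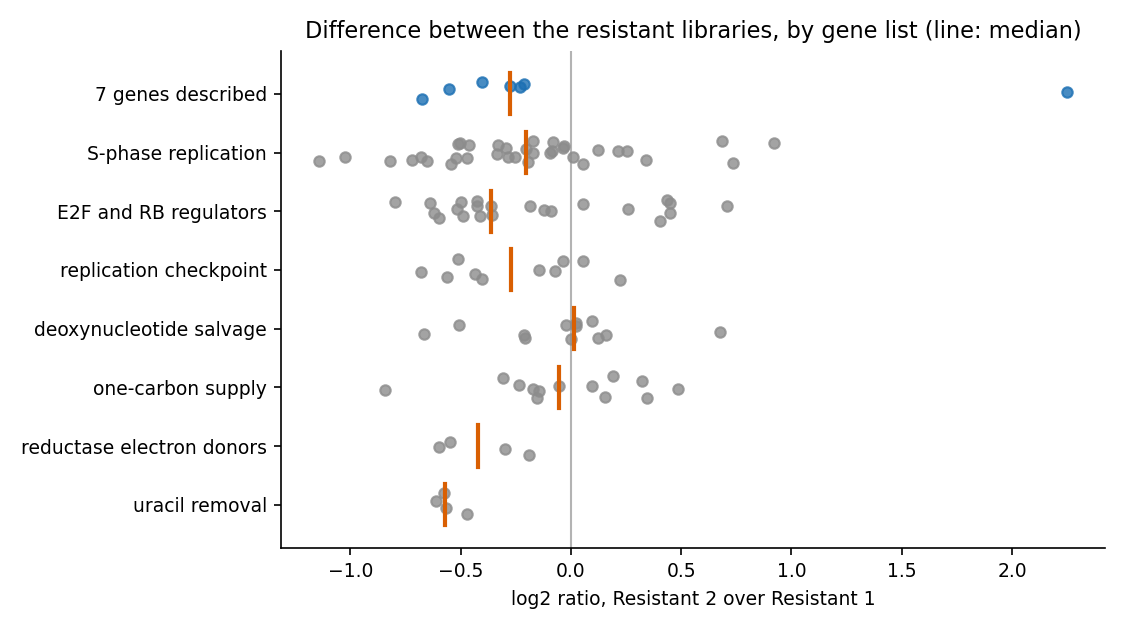
Log2 ratio of Resistant 2 over Resistant 1 for every tested gene of 8 lists, 1 point per gene, with the median of each list as an orange line. RRM1 stands alone at 2.25, and the other 6 genes described lie between -0.67 and -0.21, within the spread of the S-phase replication genes.

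Around RRM1 the difference between the resistant clones was not limited to the gene itself. STIM1, a calcium sensor whose gene ends 1.50 kb before RRM1 begins, was at 117.3, 73.4 and 73.3 CPM in Parental 1, Resistant 1 and Resistant 2, so it was lower in both resistant libraries. RHOG, AC090587.2, PGAP2 and NUP98, the next expressed genes on that side, were lower in both as well, beside 34.5% of all genes tested. The median log2 ratio to the parental library over these 5 was -0.69 in Resistant 1 and -0.92 in Resistant 2. Medians over the expressed genes of chromosome 11 were -0.39 and -0.31.

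On the other side of RRM1, the 5 next expressed genes were above the parental library in Resistant 2. All belong to the TRIM family: TRIM21 was at 17.4, 8.20 and 55.1 CPM, TRIM68 at 28.2, 12.5 and 87.9, TRIM6 at 2.98, 2.999 and 10.4, TRIM5 at 67.8, 38.7 and 114.4, and TRIM22 at 1.07, 2.45 and 7.21. Their median log2 ratio was 1.66 in Resistant 2 and -0.81 in Resistant 1, beside 1.31 and -0.94 for RRM1. TRIM6 and TRIM22, with 42 and 15 parental reads, were not below the parental library in Resistant 1. The annotated span of TRIM5 takes in all of TRIM22, so their reads may not be fully separated. Beyond TRIM22, the next 10 expressed genes were below the parental library in both resistant libraries, beside 34.5% of all genes tested. Their medians were -1.16 in Resistant 1 and -0.88 in Resistant 2. The last of them, ILK, was at 1.85, 0.490 and 0.980 CPM. It reached the mean of 1 CPM required of neighbours only through Parental 1, so no weight is put on its direction. This stretch of 10 was looked at after the values were seen.

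By the authors' group means, the 5 genes before RRM1 had a median log2 ratio of -0.79, the 5 after it 1.25 and the 10 beyond -0.78, and the 10 at places 6 to 15 before it -0.64. Of these last 10, 8 were below the parental library in both resistant ones, beside 34.5% of all genes tested. PHLDA2 (93.9, 121.1 and 147.5 CPM) and SLC22A18 (9.59, 10.1 and 9.63 CPM) were above the parental library in both. Of the 10 nearest genes none was called by edgeR or DESeq2, and 3 had an unadjusted p under 0.05 in edgeR. Over all genes tested, 9.54% had an unadjusted p under 0.05 in edgeR. Of the 10 beyond TRIM22, 7 had an unadjusted p under 0.05 in edgeR, none was called by edgeR, and PRKCDBP was called by DESeq2. Of the 10 at places 6 to 15 before RRM1, 3 had an unadjusted p under 0.05 in edgeR, none was called by edgeR, and CDKN1C was called by DESeq2. RRM1 thus lay at the first place of a run of 6 expressed genes that were all higher in Resistant 2 than in both other libraries, and the change of sign fell between STIM1 and RRM1. DNA copy number was not measured in these libraries.

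**Figure D4:**
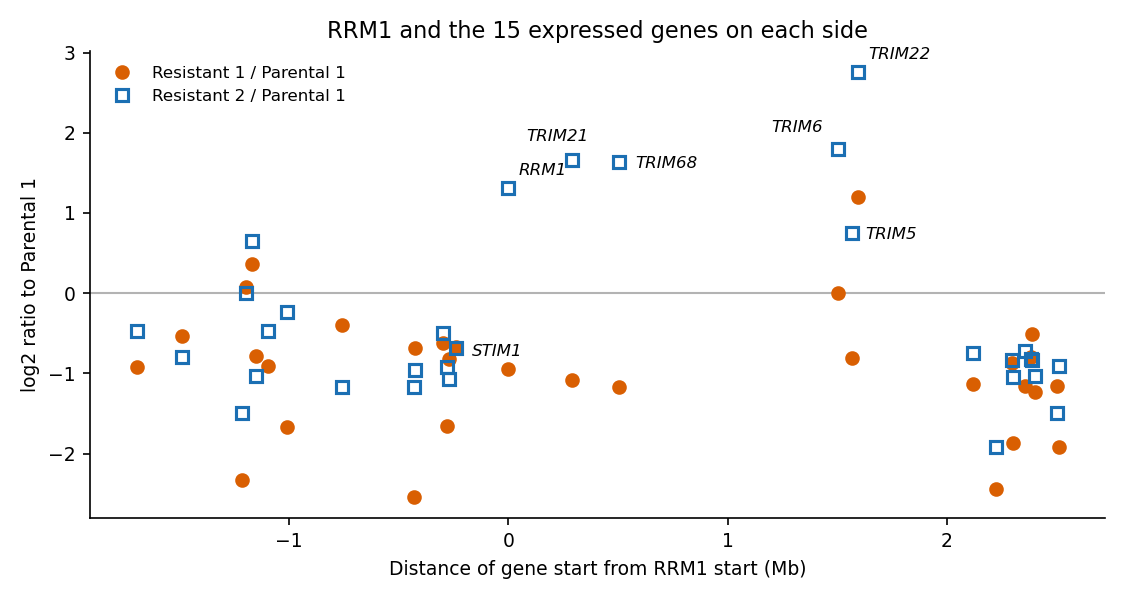
Log2 ratio to Parental 1 in Resistant 1 (filled orange circles) and Resistant 2 (open blue squares) for RRM1 and the 15 expressed genes on each side, against the distance of each gene start from that of RRM1 in Mb. In Resistant 2 RRM1 and the 5 TRIM genes after it lie above 0 (0.76 to 2.76 for the TRIM genes), whereas STIM1 just before RRM1 and the 10 genes beyond TRIM22 lie below 0. The last of these 10, ILK, counted as expressed only through its level in Parental 1.

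The neighbours of the other genes were looked at in the same way, by medians over the 5 expressed genes on each side, or fewer where the table held fewer. Beside DUT the median log2 ratio in Resistant 2 was 0.67 over the 5 genes before it and -0.16 over the 5 after it, with MYEF2 just before at 0.67 and DUT itself at -0.44. In Resistant 1 the same medians were 0.65 and 0.01. These medians take in SEMA6D before DUT and SHC4 after it, at 0.923 and 0.568 CPM in Parental 1. Both genes reached the mean of 1 CPM required of neighbours only through the resistant libraries, so the medians may lie too high. Beside TK1 the medians after the gene were 0.41 in Resistant 1 and 0.34 in Resistant 2. No median is given before TK1, because TMC8 and RP11-153A23.6 there were under 1 CPM in Parental 1. They reached the mean of 1 CPM required of neighbours only through the resistant libraries. The others before TK1 were TNRC6C, TMC6 and SYNGR2. Their log2 ratios were -0.01, 0.96 and 0.86 in Resistant 1, and 0.42, 1.77 and 0.96 in Resistant 2. For RRM2, RRM2B and TYMS each median had an absolute value of 0.53 or less. ATP6V1C2, among the genes after RRM2, was likewise under 1 CPM in Parental 1, at 0.923. Beside DTYMK the medians were -0.19 before and 0.17 after in Resistant 1, and 0.455 before and 0.457 after in Resistant 2.

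Of the 10 neighbours of TK1, TMC6, SYNGR2, AFMID and SOCS3 were above the parental library in both resistant ones, beside 35.2% of all genes tested. Among them SYNGR2 (0.552 kb away) was at 47.6, 86.2 and 92.7 CPM, TMC6 at 52.8, 103.0 and 180.3, and SOCS3 at 17.7, 47.6 and 43.6. Each of these had log2 ratios above those of TK1. TMC8 (0.426, 6.06 and 7.73 CPM) and RP11-153A23.6 (0.923, 2.82 and 2.88 CPM) were above the parental library as well. Both were under 1 CPM in Parental 1 and reached the mean of 1 CPM required of neighbours only through the resistant libraries. No weight is therefore put on their direction. DNAH17, at 6.11, 4.35 and 4.38 CPM, was below its parental level in both, BIRC5, at 14.8, 21.4 and 11.99 CPM, in Resistant 2, and PGS1, at 66.6, 60.0 and 84.1 CPM, in Resistant 1. Of the neighbours of TK1, TMC8 had the lowest adjusted p in edgeR, 0.058, which is no call, and was called by DESeq2 (adjusted p = 0.0021). HPCAL1, the next gene after RRM2, was at 101.7, 232.3 and 238.7 CPM, whereas RRM2 itself lay on both sides of its parental level. ENOSF1, which overlaps TYMS, was at 54.1, 55.9 and 58.9 CPM, a log2 ratio to Parental 1 of 0.05 in Resistant 1 where TYMS had 0.50.

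The profile of RRM1 over the 3 libraries was most like that of MMP10, DGAT2, NCKAP5, LPHN1 and TRIM21, by the distance between centred log2 CPM values in 9674 genes averaging 10 CPM or more, after 3 with 0 reads in a library were left out. The distance was 0.11 for MMP10 (62.1, 29.0 and 145.3 CPM) and 0.36 for TRIM21. Of the 5, MMP10, DGAT2 and TRIM21 also lie on chromosome 11, where they start at 102641234, 75470557 and 4406127. Only TRIM21 is thus among the neighbours of RRM1 described above. The share of the 9674 genes that lie on chromosome 11 was not counted. RRM2B was most like KIAA1244, AC124789.1, LINC00152, MFSD2A and CNOT7, with distances of 0.02 to 0.05. With 3 libraries, likeness of this kind is a description of the level order and says nothing of shared control.

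Genes that feed these enzymes were measured as well. Of 13 genes of one-carbon supply to TYMS, none was called by edgeR or DESeq2, with 1 unadjusted p under 0.05 in each. Their median log2 fold change was -0.04. MTHFD2L, a mitochondrial enzyme of the pathway, had the highest estimate, at 3.34, 7.28 and 6.46 CPM (log2 fold change 1.04, adjusted p = 0.58, edgeR). The 4 genes that remove uracil from DNA were all lower in Resistant 2 than in Resistant 1, led by UNG at 138.5, 133.3 and 87.2 CPM, and TDG had the lowest estimate (-0.63, adjusted p = 0.68, edgeR) and MBD4 the highest (-0.14, adjusted p = 0.97, edgeR). None of the 4 had an unadjusted p under 0.05 by either tool.

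Of 12 genes of deoxynucleotide salvage, interconversion and breakdown, 10 had an estimate above 0, beside 8185 of the 15643 genes tested. The 12 had a median log2 fold change of 0.31, beside 0.03 over all genes tested. By the authors' group means their median log2 ratio was 0.08, beside 0.02 over all genes tested. None was called by edgeR or DESeq2, with 1 unadjusted p under 0.05 in edgeR and 0 in DESeq2. The genes that handle gemcitabine itself were among them. SLC29A1, the nucleoside transporter that takes the drug up, was at 29.5, 50.7 and 55.2 CPM (0.85, unadjusted p = 0.044, adjusted p = 0.51, edgeR). CDA, the deaminase that inactivates it, was at 6.46, 12.4 and 12.6 CPM (0.95, adjusted p = 0.57, edgeR), and DCK, the kinase that activates it, at 12.6, 19.8 and 20.2 CPM (0.67, adjusted p = 0.68, edgeR). For these 3 genes the resistant libraries lay close together and above the parental one. The authors' group means gave log2 ratios of 0.40 for SLC29A1 and 0.53 for DCK, and for CDA a ratio of -0.10, in the opposite direction to the libraries. TYMP had the lowest estimate (2.13, 1.41 and 2.25 CPM, -0.22, adjusted p = 0.97, edgeR).

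The 4 electron donors of the reductase were lower in Resistant 2 than in Resistant 1, with TXNRD1 at 323.5, 396.2 and 271.2 CPM and TXN at 330.9, 257.7 and 209.3 CPM. None of them had an unadjusted p under 0.05 by edgeR or DESeq2. Their median log2 fold change was 0.15, with GLRX the highest (0.53, adjusted p = 0.82, edgeR) and TXN the lowest (-0.50, adjusted p = 0.73, edgeR). Of 10 replication checkpoint genes, none was called by either tool, with 1 unadjusted p under 0.05 in each. WEE1, a kinase that restrains entry into mitosis, had the lowest estimate (113.2, 46.4 and 54.1 CPM, -1.17, adjusted p = 0.25, edgeR), and ATR, the kinase that senses stalled forks, the highest (33.95, 45.4 and 31.8 CPM, 0.19, adjusted p = 0.95, edgeR). By the authors' group means, the median log2 ratio was 0.12 for one-carbon supply, -0.068 for uracil removal, -0.014 for the electron donors, -0.0089 for the E2F and RB genes, -0.24 for protein turnover and -0.14 for the checkpoint genes. One-carbon supply and the electron donors thus had the opposite sign to the median from the 3 libraries.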

How the data were processed

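The authors purified poly-A RNA, and the submitters' processing notes name CASAVA 1.8 and hg19. The aligner and counter are not given in the sources used here. The authors deposited raw read counts per gene, FPKM values (here equal to counts per length and total count, within 1e-06) and a signal per group, the authors' mean of normalized counts, printed without SD. Their 3 columns of a DESeq2 comparison (log2 fold change, with raw and adjusted p) were not used, nor were 6 per-library columns that match no sample label. Counts were tested with edgeR 4.0.16 (filterByExpr, TMM, quasi-likelihood, Benjamini-Hochberg) and with DESeq2 1.42.0 as an alternative. Each was run across all genes on 3 libraries. Ratios of single libraries carry 95% exact binomial intervals. The log2 ratio of group means used a pseudocount of 1. The fit was tested on simulated data. Expressed neighbours had a mean of at least 1 CPM. Of the lists, the text names genes past the test, the largest estimate in each direction and genes acting directly on a member, besides 5 neighbours on each side and 5 similar profiles where levels differed 2-fold. Members and lists were chosen with earlier results of these data known. Some genes of the lists and neighbourhoods are not reported here.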

Additional observations from a re-analysis of the deposited data

How the results depend on the processing

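The number of genes called, 91, depended on the settings. It was 178 with edgeR's RLE factors, 137 with the legacy quasi-likelihood fit, 164 among genes averaging 5 CPM or more and 247 with DESeq2. It was 0 in edgeR without a filter on low counts, where 1262 of 26434 genes had an unadjusted p under 0.05. The cause of these differences was not tested. None of the 7 genes was called under any of them, with adjusted p between 0.69 and 1.00 (edgeR and DESeq2). The estimate of DTYMK, -0.00, became 0.025 among genes of at least 5 CPM and 0.0016 in DESeq2. With 1 resistant library left out, which gives a value and no test, log2 ratios ranged from -0.94 to 1.31 for RRM1, -0.36 to 0.31 for RRM2, -0.058 to 0.50 for TYMS, -0.12 to 0.11 for DTYMK, 0.60 to 1.00 for RRM2B, 0.10 to 0.38 for TK1 and -0.44 to -0.23 for DUT. List medians ranged likewise from -0.096 to 0.024 for one-carbon supply, 0.27 to 0.47 for salvage, -0.045 to 0.32 for electron donors, -0.57 to -0.028 for uracil removal, -0.16 to 0.016 for E2F and RB genes, -0.37 to -0.24 for protein turnover, -0.27 to -0.080 for S-phase replication and -0.33 to 0.12 for checkpoint genes. The checkpoint median was 0.00099 among genes of at least 5 CPM. All 21 alternatives for the group means and all 21 for Resistant 2 over Resistant 1 kept their direction. No paired analysis was possible because the libraries came from independent clones, which a shared replicate number does not pair. Read depth limits RRM2B most, with 59 parental reads, and 1 parental library shows no spread between parental clones.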
